A study of Mus musculus with 6 samples.

Results

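The Akr1, Hsd, Ugt, Sult and Aldh gene families encode enzymes that reduce or oxidise steroids and aldehydes and that attach sugar acids or sulfate to small molecules. Genes were taken by symbol (Akr1, or Hsd, Ugt, Sult or Aldh followed by a digit, leaving out Hsd11b2), and each gene was represented by the probe set with the highest mean intensity among those annotated to that gene alone. The rule found 75 genes of 18193 on the array, of which 14 were Akr1, 17 Hsd, 11 Ugt, 13 Sult and 20 Aldh genes. Their RNA was measured in kidneys of male FVB/N mice aged 6 to 8 weeks and weighing 22 to 26 g, after unilateral clamping of the renal pedicle and reperfusion. The pedicle was clamped for 0, 45 or 60 min and the kidney was collected on day 3 or day 1, with 1 Affymetrix array for each of the 6 combinations. All mice had the pedicle exposed under anaesthesia, including those with 0 min of clamping, so the 0 min kidneys are operated controls and not kidneys of untouched animals. The sources used here do not say how many animals stand behind each array.

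Aldo-keto reductases (Akr1) use NADPH to turn aldehydes and ketones into alcohols, and several Akr1c enzymes act on the keto groups of steroids. Hydroxysteroid dehydrogenases (Hsd) interconvert active and inactive steroids, although several Hsd17b enzymes work mainly on fatty acids, and aldehyde dehydrogenases (Aldh) oxidise aldehydes to acids, including retinal to retinoic acid and intermediates of amino acid breakdown. UDP-glycosyltransferases (Ugt) and sulfotransferases (Sult) conjugate steroids, drugs and other small molecules, and the proximal tubule of the kidney, which ischemia injures most readily, carries many of these enzymes.

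When 60 min of clamping was set against 0 min, 6 members were 2-fold or more apart in the same direction on both days. Of these 4 were higher after 60 min: Akr1b8, an aldose reductase-like enzyme; Aldh1a2, a retinal dehydrogenase that makes retinoic acid; Aldh18a1, the mitochondrial enzyme that starts proline synthesis from glutamate; and Aldh1a7, a close relative of Aldh1a1. The other 2 were lower: Akr1c14, a 3-alpha-hydroxysteroid dehydrogenase, and Ugt3a1, a UDP-glycosyltransferase. Their promoters are shown because these 6 genes passed 2-fold on both days. The sequences are RefSeq windows of build GRCm38.p6, from 250 bases before to 50 bases after the start that RefSeq's window table takes, printed 5′ to 3′ on the strand of the gene, with matches to the searched motifs in capitals. That start is the outermost base of the gene in the RefSeq gene table for Akr1b8, Aldh1a2, Aldh18a1 and Aldh1a7. It lies 7 bases inside the gene for Ugt3a1 and 10600 bases inside it for Akr1c14, so the Akr1c14 window is not at the outermost annotated start of that gene.
Akr1b8 promoter, chr6:34353896-34354195, plus strand: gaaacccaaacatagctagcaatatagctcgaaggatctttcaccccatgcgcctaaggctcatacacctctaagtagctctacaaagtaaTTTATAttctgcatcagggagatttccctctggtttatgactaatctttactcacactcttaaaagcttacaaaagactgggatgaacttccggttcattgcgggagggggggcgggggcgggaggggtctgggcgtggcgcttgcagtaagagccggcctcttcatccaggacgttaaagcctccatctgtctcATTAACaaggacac
Aldh1a2 promoter, chr9:71215539-71215838, plus strand: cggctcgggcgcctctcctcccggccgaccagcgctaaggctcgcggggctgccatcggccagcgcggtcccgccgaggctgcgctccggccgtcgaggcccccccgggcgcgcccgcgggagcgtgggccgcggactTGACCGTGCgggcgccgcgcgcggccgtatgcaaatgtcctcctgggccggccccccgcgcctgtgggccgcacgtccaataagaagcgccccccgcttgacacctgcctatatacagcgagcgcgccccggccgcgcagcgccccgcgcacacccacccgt
Aldh18a1 promoter, chr19:40588414-40588713, minus strand: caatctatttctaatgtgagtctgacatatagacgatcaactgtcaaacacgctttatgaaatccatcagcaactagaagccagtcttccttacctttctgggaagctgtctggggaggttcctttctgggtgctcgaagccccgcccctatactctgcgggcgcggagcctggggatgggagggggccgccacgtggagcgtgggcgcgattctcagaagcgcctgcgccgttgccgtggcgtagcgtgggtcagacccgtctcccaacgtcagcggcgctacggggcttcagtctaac
Aldh1a7 promoter, chr19:20727507-20727806, minus strand: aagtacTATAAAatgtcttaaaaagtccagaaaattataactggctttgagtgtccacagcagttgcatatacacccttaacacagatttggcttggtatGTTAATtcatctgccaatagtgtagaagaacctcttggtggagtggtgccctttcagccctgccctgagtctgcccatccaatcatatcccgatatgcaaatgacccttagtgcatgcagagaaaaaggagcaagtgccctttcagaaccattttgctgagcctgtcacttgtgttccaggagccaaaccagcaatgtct
Akr1c14 promoter, chr13:4059341-4059640, plus strand: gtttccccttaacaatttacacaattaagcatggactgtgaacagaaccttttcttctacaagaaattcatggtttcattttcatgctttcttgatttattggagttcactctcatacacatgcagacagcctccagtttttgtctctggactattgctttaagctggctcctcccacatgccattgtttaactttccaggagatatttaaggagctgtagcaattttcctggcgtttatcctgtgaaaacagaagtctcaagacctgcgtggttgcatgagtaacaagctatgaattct
Ugt3a1 promoter, chr15:9279579-9279878, plus strand: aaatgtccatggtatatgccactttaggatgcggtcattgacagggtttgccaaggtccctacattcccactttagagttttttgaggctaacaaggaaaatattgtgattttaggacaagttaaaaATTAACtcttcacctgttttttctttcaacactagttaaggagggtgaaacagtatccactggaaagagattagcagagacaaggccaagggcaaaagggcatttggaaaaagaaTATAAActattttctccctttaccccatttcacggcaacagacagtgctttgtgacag
A set of 5 motifs was searched on both strands: TGACNNNGC (the core of the antioxidant response element), TGANTCA (AP-1), CAAAGTCCA (HNF4), GTTAAT (part of an HNF1 site) and TATAAA (the TATA box). TGACNNNGC and TGANTCA can overlap, since a site such as one that reads TGAC followed by TCA and GC holds both. Among 32851 RefSeq windows of the same length, 12.4% held TGACNNNGC, 7.81% TGANTCA, 0.475% CAAAGTCCA, 7.10% GTTAAT and 13.6% TATAAA. Of the 4 genes that were higher, Aldh1a2 held TGACNNNGC at -112 from the start, Akr1b8 and Aldh1a7 each held GTTAAT and TATAAA, and Aldh18a1 held none of the 5. Of the 2 that were lower, Ugt3a1 held GTTAAT at -123 and TATAAA at -8, and Akr1c14 held none. The windows of all members, 68 windows for 61 genes, held TGACNNNGC in 8 windows, TGANTCA in 10, CAAAGTCCA in 3, GTTAAT in 7 and TATAAA in 8. A match says only that these letters occur in the window.

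Values are intensities on a linear scale, scaled by the authors to a common mean on every array, and an intensity of one probe set says nothing of the amount of another gene's RNA. Differences are on the log2 scale after adding 16, which makes the differences of dim genes smaller than their ratios. A gene entered the counts and the fits when its mean log2(intensity + 16) reached 6.01, the 40th percentile of all probe sets, and 57 of the 75 members did, as did 12734 of all genes. They were 12 of 14 Akr1, 13 of 17 Hsd, 7 of 11 Ugt, 6 of 13 Sult and 19 of 20 Aldh genes. The 18 dim members lay between 0.913 and 66.9 on any array. Just inside the limit stood Hsd17b1, which makes active estrogen, with a mean log2 of 6.01, and just outside stood Ugt2b36 with 5.71. Single arrays were compared by size, at 2-fold, with no test. The limma fit of clamp time plus day used all 6 arrays and had 2 residual degrees of freedom. With 1 array per combination, its spread is how far clamp differences changed between the days, shared in part over all genes. Its SE and p-values therefore do not measure the spread between replicate kidneys. The kidney genes Umod, Slc34a1, Lrp2 and Kap were bright on every array, with Lrp2 at 9491 or more and Kap at 38470 or more. With Slc12a1, Slc12a3 and Aqp2, 7 kidney genes were read. All 7 were lower after 60 min than after 0 min on both days, against 31.7% of all genes. Slc12a3 differed most, at 4575 after 0 min and 888.2 after 60 min on day 3 and 4880 and 2897 on day 1. Actin probe sets at the 3′ end exceeded those at the 5′ end by a log2 of 1.03 to 1.12 on 4 arrays, by 0.49 in the 60 min kidney of day 3 and by 0.77 in its 0 min control, and the part of this in any result was not tested. Whole kidney RNA was measured, so fewer cells of a type and less RNA per cell cannot be told apart.

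The 60 min clamp set against 0 min asked how a long ischemia leaves these enzymes during the following days. Of the 57 members, 4 were higher by 2-fold or more on each of the days, against 3.04% of all genes, and 2 were lower by as much, against 0.715% of all genes. With quantile normalization 0 members were lower by that much on both days: Akr1c14 stood at -1.71 on day 3 and -0.96 on day 1, and Ugt3a1 at -1.13 on day 3 and -0.97 on day 1. On day 3 alone 5 members were at least 2-fold higher and 5 lower, against 7.58% and 2.32% of all genes. On day 1 alone 6 were higher and 2 lower, against 4.39% and 1.71% of all genes. Smaller differences ran mainly downward: 30 of the 57 members (52.6%) were lower on both days, against 31.7% of all genes, and 13 (22.8%) were higher on both days, against 38.7% of all genes. The median difference of the members was -0.29 on day 3 and -0.28 on day 1, against 0.04 on day 3 and 0.03 on day 1 for all genes. In the limma fit 0 of 57 members passed an adjusted p of 0.05, as did 0.0% of all genes, while a robust variance with an intensity trend passed 14 members and 4.83% of all genes. At an unadjusted p under 0.05, 20 members (35.1%) were lower and 7 (12.3%) higher, against 8.22% and 13.2% of all genes.

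**Figure D1:**
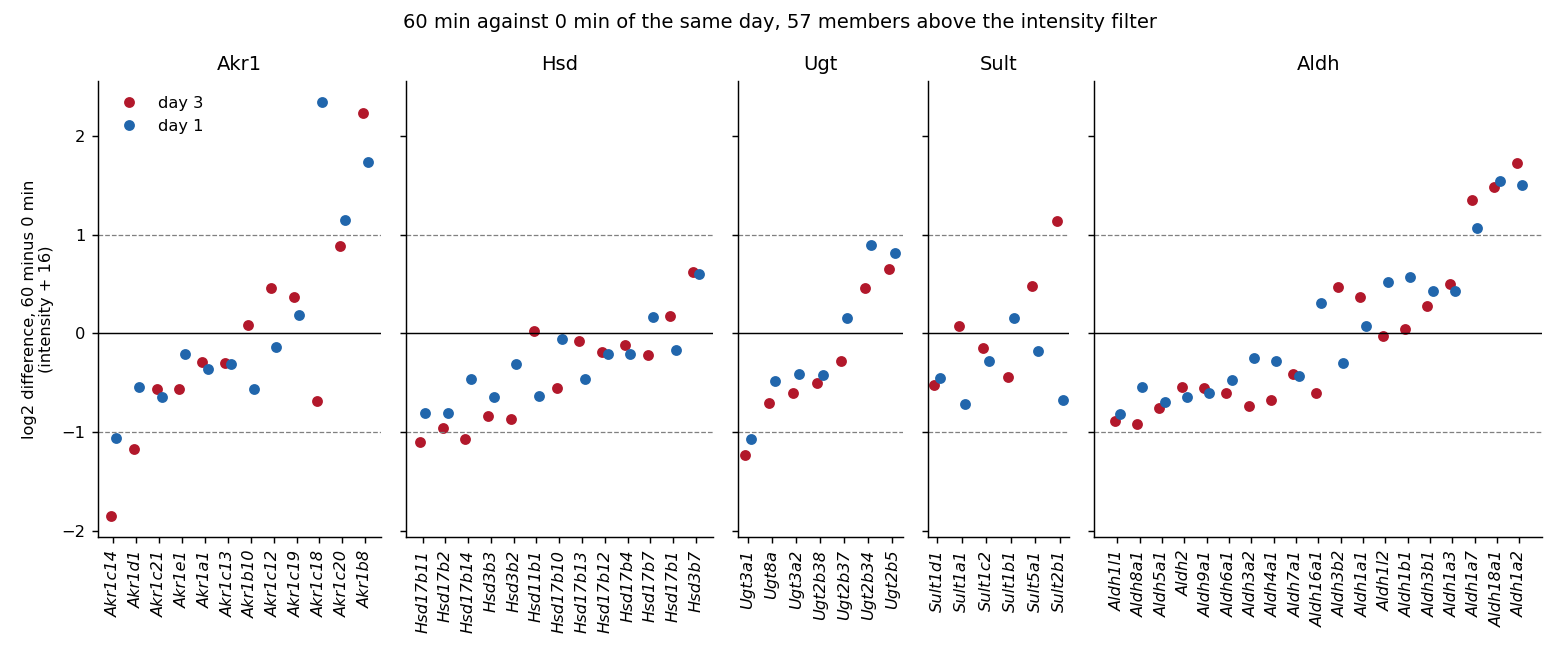
Log2 difference of 60 min minus 0 min for each of the 57 members above the intensity limit, with a point for day 3 and a point for day 1, grouped by family, and dashed lines at 2-fold. Akr1b8 lies farthest above 0 on day 3 at 2.23 and Akr1c14 farthest below at -1.85, while Akr1c18 lies at -0.68 on day 3 and 2.34 on day 1.

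Akr1b8 was the member with the largest difference that held on both days. On day 3 its intensity was 217.7, 328.7 and 1080.9 after 0, 45 and 60 min, and on day 1 it was 275.5, 324.3 and 955.9. Both 60 min kidneys stood above the other 4, which did not exceed 329. The 60 min arrays were 4.97 times the 0 min array on day 3 and 3.47 times on day 1. The limma estimate of 60 min against 0 min was 1.98 ± 0.18 (SE, 2 arrays each, adjusted p = 0.0644), and against 45 min it was 1.59 ± 0.18 (adjusted p = 0.306). The adjacent gene on chromosome 6, Akr1b10, did not follow it at its brightest probe set. There the Akr1b10 intensity was 568.6, 417.7 and 602.3 after 0, 45 and 60 min on day 3 and 857.2, 411.7 and 577.0 on day 1. Its 60 min kidneys lay between the 0 and 45 min kidneys on day 1 and above both on day 3. The next brightest Akr1b10 probe set stepped up with clamp time on both days, with 60 min minus 0 min at 0.64 on day 3 and 0.37 on day 1. The dimmest gave 0.41 on day 3 and -0.62 on day 1. Akr1a1, which reduces glucuronate on the way to ascorbate in mice, had a 60 min minus 0 min difference of -0.29 on day 3 and -0.36 on day 1, and its limma estimate of -0.32 became 0.0 with quantile normalization. Akr1b3 and Akr1b7 were not analysed here.

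**Figure D2:**
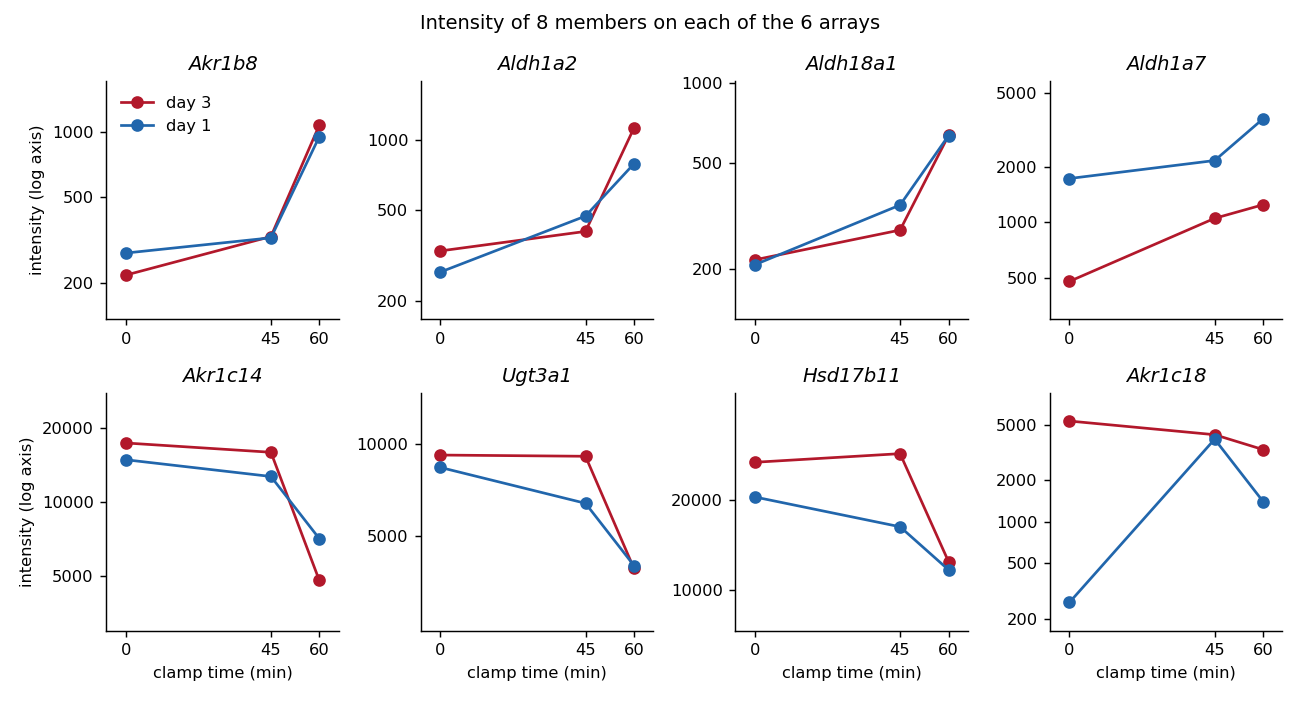
Intensity on each of the 6 arrays for 8 members, on a log axis, against clamp time in minutes, with day 3 and day 1 as separate lines and 1 array per point. Akr1b8, Aldh1a2 and Aldh18a1 are highest after 60 min on both days, Akr1c14, Ugt3a1 and Hsd17b11 are lowest after 60 min on both days, and Akr1c18 is lowest on the 0 min array of day 1.

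A run of 9 Akr1c and Akr1e genes lies next to each other on chromosome 13, in the order Akr1c14, Akr1c18, Akr1c13, Akr1c19, Akr1c12, Akr1c6, Akr1c20, Akr1c21 and Akr1e1, with 0 other coding genes between them in the RefSeq table. They did not move as a block. Akr1c14, which reduces the 3-keto group of dihydrosteroids, had intensities of 17317, 15877 and 4792 after 0, 45 and 60 min on day 3 and 14808, 12663 and 7082 on day 1. Its 2 lowest kidneys were both 60 min kidneys, and the 0 and 45 min kidneys did not overlap with them. The limma difference of 60 min against 0 min was -1.46 ± 0.26 (SE, adjusted p = 0.0899). Akr1c21, a 3(17)-alpha-hydroxysteroid dehydrogenase of mouse kidney, read 19622, 16150 and 13242 on day 3 and 11805, 12932 and 7579 on day 1. It was lowest after 60 min within each day, with a limma difference of -0.60 ± 0.18 (SE, adjusted p = 0.171), but the 60 min kidney of day 3 exceeded the 0 min kidney of day 1. Akr1c20 was higher after 60 min at low intensities, 62.1, 60.8 and 127.8 on day 3 and 40.9, 84.5 and 110.0 on day 1 (limma 1.01 ± 0.24, adjusted p = 0.127). A second, dimmer Akr1c20 probe set went the other way, at -0.86 on day 3 and -0.79 on day 1, with intensities of 3.9 to 47.9. Akr1c19, Akr1c13 and Akr1c12 differed by less than 0.5 between 60 and 0 min on either day, Akr1e1, which reduces 1,5-anhydrofructose, by -0.56 on day 3 and -0.21 on day 1, and Akr1c6 was dim. Akr1c12 and Akr1c13 also share a probe set, which was not used, and probes for such close relatives can bind each other's RNA. Away from the cluster, Akr1d1, the steroid 5-beta-reductase, read 815.2, 572.5 and 353.2 on day 3 and 1003, 826.4 and 683.0 on day 1, stepping down with clamp time on both days (60 min against 0 min by limma -0.86 ± 0.20, adjusted p = 0.125).

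**Figure D3:**
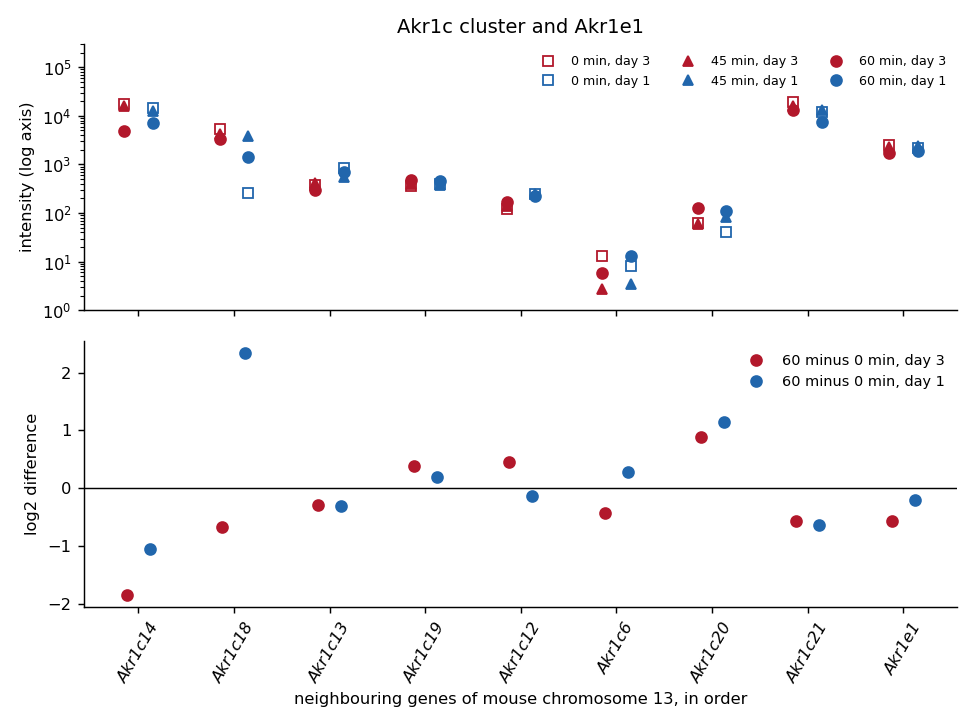
Akr1c and Akr1e genes in their order along mouse chromosome 13, with the intensity on each array on a log axis (top) and the log2 difference of 60 min minus 0 min for day 3 and day 1 (bottom). Akr1c14 is at -1.85 on day 3 and -1.06 on day 1, while its neighbour Akr1c18 is at -0.68 on day 3 and 2.34 on day 1.

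Akr1c18, the 20-alpha-hydroxysteroid dehydrogenase that inactivates progesterone, differed most between the control kidneys. Its 1 probe set read 5296, 4222 and 3300 after 0, 45 and 60 min on day 3, and 262.1, 3921 and 1395 on day 1. The 0 min kidney of day 1 stood apart below the other 5. Between the 0 min kidneys Akr1c18 was 20.2 times as bright on day 3 as on day 1, a log2 difference of 4.26, which ranked 1 of 12734 genes. The difference of 60 min minus 0 min was -0.68 on day 3 and 2.34 on day 1, and that of 45 min minus 0 min was -0.33 on day 3 and 3.82 on day 1. The limma estimate of 60 min against 0 min was 0.83 ± 0.97 (SE, adjusted p = 0.659), and without the 0 min kidney of day 1 it was -0.96. Estimated from the 0 min and clamped kidneys of each day, the clamp effect on day 3 minus that on day 1 was -3.59 ± 0.89 (SE), with a limma adjusted p of 1.0 over all genes. That SE rests on how far the 45 and 60 min kidneys of a day differed, with the spread shared in part over all genes. It assumes that the single 0 min array of each day varies like them. Adrenal cortex makes steroids and lies beside the kidney, and its markers were read on the same arrays. Of 8 such markers, 5 were below the intensity limit (Cyp11a1, Cyp11b1, Cyp11b2, Mc2r and Nr5a1, none above 49.8 on any array). The sum over all 8 was 535.4 in the 0 min kidney of day 3 and 572.5 in that of day 1. Scarb1 alone gave 298.9 and 293.0 of these sums. The proximal tubule S3 genes summed to 99054 in the 0 min kidney of day 3 and 82096 in that of day 1. The part of adrenal tissue or of S3 cells in the Akr1c18 difference was not tested.

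Among the hydroxysteroid dehydrogenases the differences after 60 min were mainly downward. None was past 2-fold on both days, against 3.04% of all genes higher and 0.715% lower, so this count was near those shares. Of 13 above the intensity limit, 9 (69.2%) were lower after 60 min on both days and 1 (7.69%) was higher on both days, against 31.7% and 38.7% of all genes. With quantile normalization 7 (53.8%) were lower on both days, against 37.6% of all genes. The median difference from 0 min was -0.22 on day 3 and -0.31 on day 1. Hsd17b11, an enzyme of lipid droplets, read 26782, 28620 and 12460 after 0, 45 and 60 min on day 3 and 20497, 16291 and 11693 on day 1. Both 60 min kidneys were below the other 4 (limma -0.96 ± 0.21, adjusted p = 0.119). A second, dimmer Hsd17b11 probe set gave -1.84 on day 3 and -1.31 on day 1. Its neighbour Hsd17b13, also a lipid droplet protein, was near the intensity limit, at 49.2 to 96.4. Hsd17b2, which oxidises estradiol and testosterone to less active forms, read 566.9, 512.7 and 285.3 on day 3 and 495.8, 298.2 and 276.2 on day 1, and on day 1 the 45 min kidney was close to the 60 min kidney (limma -0.88 ± 0.22, adjusted p = 0.135). The renal 3-beta-hydroxysteroid dehydrogenases Hsd3b2 and Hsd3b3 were also lowest after 60 min on both days, with limma differences of -0.59 ± 0.19 (adjusted p = 0.185) and -0.74 ± 0.15 (adjusted p = 0.107). A shared probe set of Hsd3b4 and 2 other symbols read 15263, 13786 and 8622 on day 3 and 13731, 15767 and 11448 on day 1, and it entered no count. Hsd17b14 stood at 125.9, 100.6 and 51.9 on day 3 and 77.5, 68.4 and 52.2 on day 1 (limma -0.76 ± 0.20, adjusted p = 0.145). Hsd3b7, which acts on the sterol ring in bile acid synthesis, ran the other way. It had 665.2, 633.1 and 1032 on day 3 and 684.7, 808.9 and 1046 on day 1, with both 60 min kidneys above the other 4 (limma 0.61 ± 0.16, adjusted p = 0.146). Hsd11b1, which regenerates active glucocorticoid, showed no common direction, with 60 min minus 0 min differences of 0.03 on day 3 and -0.63 on day 1. The peroxisomal Hsd17b4 was bright and differed little, at -0.12 on day 3 and -0.21 on day 1.

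The aldehyde dehydrogenases ran in both directions. Of 19 above the intensity limit, 9 (47.4%) were lower after 60 min on both days and 7 (36.8%) higher on both days, against 31.7% and 38.7% of all genes, so the share of higher ones was near that of all genes. Of the 3 that were higher by 2-fold or more, 2 belong to the Aldh1a subfamily. Aldh1a2 read 330.9, 402.2 and 1129 after 0, 45 and 60 min on day 3 and 267.8, 468.7 and 790.0 on day 1. It stepped up with clamp time on both days, and both 60 min kidneys were above the other 4. The limma difference of 60 min against 0 min was 1.61 ± 0.22 (SE, adjusted p = 0.0745), and 60 min against 45 min gave 1.09 ± 0.22. Aldh1a7 read 480.3, 1053 and 1248 on day 3 and 1729, 2163 and 3637 on day 1. It too stepped up with clamp time on both days, but every day 3 kidney was below every day 1 kidney. Its limma difference of 60 min against 0 min was 1.21 ± 0.23 (SE, adjusted p = 0.0961), and that of day 3 against day 1 in clamped kidneys was -1.28 ± 0.30 (adjusted p = 0.997). In the 0 min kidneys day 3 minus day 1 was -1.81. Aldh1a1, the adjacent gene on chromosome 19 and the widely expressed retinal dehydrogenase, read 363.7, 579.6 and 475.5 on day 3 and 1058, 526.2 and 1115 on day 1, with no order by clamp time. Aldh1a3, the other retinal dehydrogenase, stayed between 65.7 and 143.4. Aldh1a2 is also made by stromal and mesothelial cells, and fibroblast markers were read beside it. Their summed intensity, to which the brightest genes add most, was 12865, 22228 and 35757 after 0, 45 and 60 min on day 3. On day 1 it was 8010, 23252 and 20234. After 60 min 4 of 7 genes were past 2-fold higher on both days, while Dcn at -0.54 and Lum at -0.18 were lower on day 1. The part of these cells in the Aldh1a2 difference was not tested.

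Aldh18a1, whose product makes the precursor of proline, read 216.5, 279.9 and 633.4 on day 3 and 207.5, 347.4 and 632.6 on day 1. The 60 min kidneys of both days were nearly equal and above the other 4 (limma 1.51 ± 0.16, SE, adjusted p = 0.0644). Aldh18a1 has 5 probe sets. The next brightest gave 1.09 on day 3 and 1.48 on day 1 and another 0.81 on day 3 and 1.15 on day 1. Of the 2 dimmest, one gave 2.09 on day 3 and -0.49 on day 1, and the other -0.10 on day 3 and 0.22 on day 1. The proline-degrading Aldh4a1 differed in the other direction, with 60 min minus 0 min at -0.67 on day 3 and -0.28 on day 1 (limma -0.48 ± 0.18, adjusted p = 0.229).

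The bright Aldh genes of amino acid, carnitine, aldehyde and folate metabolism were all lower after 60 min on both days. Aldh1l1, which takes formyl groups off folate in the cytosol, read 7907, 7713 and 4286 on day 3 and 10301, 7079 and 5858 on day 1 (limma -0.85 ± 0.20, adjusted p = 0.126). Its mitochondrial counterpart Aldh1l2 stayed between 61.6 and 118.9. Aldh2, which clears acetaldehyde and lipid aldehydes, read 11389, 8463 and 7826 on day 3 and 12708, 8400 and 8132 on day 1. For Aldh2 both clamp times were below both 0 min kidneys, and the 45 and 60 min kidneys were close to each other (limma 60 min against 0 min -0.59 ± 0.15, adjusted p = 0.134). Aldh6a1 of valine breakdown, Aldh9a1 of carnitine synthesis and Aldh8a1, whose mean intensities exceed 5000, and the dimmer Aldh5a1 of GABA breakdown had 60 min minus 0 min differences of -0.56 to -0.91 on day 3 and -0.47 to -0.69 on day 1. Aldh3a1, the aldehyde dehydrogenase of cornea and stomach, was the 1 dim Aldh gene.

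The UDP-glycosyltransferases were led by Ugt3a1, known in humans for attaching N-acetylglucosamine. It read 9201, 9117 and 3916 after 0, 45 and 60 min on day 3 and 8383, 6396 and 4003 on day 1. The 60 min kidneys were close to each other on the 2 days and below the other 4. The limma difference was -1.15 ± 0.19 against 0 min (SE, adjusted p = 0.0875) and -0.94 ± 0.19 against 45 min (adjusted p = 0.306), and a second probe set gave -1.25 on day 3 and -1.04 on day 1. The adjacent Ugt3a2 was lower by less, at -0.60 on day 3 and -0.41 on day 1. Ugt8a, which makes galactosylceramide, read 8445, 11502 and 5171 on day 3 and 9076, 6298 and 6492 on day 1, lowest after 60 min on day 3 but level with 45 min on day 1. Ugt2b enzymes, which glucuronidate steroids and drugs, had no common direction. The bright Ugt2b38 was at -0.50 on day 3 and -0.42 on day 1 after 60 min, and Ugt2b37 at -0.28 on day 3 and 0.15 on day 1. The dimmer Ugt2b5 was at 0.65 on day 3 and 0.81 on day 1, and Ugt2b34 at 0.46 on day 3 and 0.90 on day 1. The 8 Ugt1a symbols, which share their last exons, appear only on 3 shared probe sets, and these gave -0.28 to -0.34 on day 3 and -0.38 to -0.61 on day 1.

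No sulfotransferase was past 2-fold in the same direction on both days after 60 min, against 3.04% of all genes higher and 0.715% lower. With 6 genes a count of 0 is near those shares. Of 6 above the intensity limit, 2 (33.3%) were lower on both days and 0 higher on both days, against 31.7% and 38.7% of all genes, so the share of lower ones was near that of all genes. Sult1d1, which sulfates catecholamines in mice, read 22547, 24690 and 15751 on day 3 and 24373, 20613 and 17853 on day 1, with both 60 min kidneys below the other 4 (limma -0.48 ± 0.18, adjusted p = 0.214). Sult1c2 was at -0.14 on day 3 and -0.28 on day 1. Sult1a1, the phenol sulfotransferase, was at 0.08 on day 3 and -0.71 on day 1, and Sult2b1, which sulfates cholesterol and hydroxysteroids, at 1.14 on day 3 and -0.68 on day 1 with intensities of 27.0 to 109.6. Sult1b1 at 114.2 to 174.3 and Sult5a1 at 88.0 to 157.8 had no common direction between days.

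Bright members were lower after 60 min more often than dim ones. Of 19 members with a mean intensity of at least 5000, 18 (94.7%) were lower after 60 min on both days, and the exception, Hsd11b1, was at 0.03 on day 3. Their median difference was -0.57 on day 3 and -0.48 on day 1. Among all 921 genes that bright, 66.4% were lower on both days and the medians were -0.27 on day 3 and -0.19 on day 1. Of the 38 dimmer members, 12 (31.6%) were lower on both days, against 29.0% of the other genes, with medians of 0.06 on day 3 and 0.01 on day 1. With quantile normalization 15 of the 19 (78.9%) were lower on both days, and with each array centred on its median 19 were. Over genes of any brightness the shares were 37.6% and 40.1%, against 31.7% as deposited. The shares among genes as bright as the 19 were not computed under these scalings, so a like comparison is given only for the deposited values. The median of all genes on day 3 was -0.13 with median centring, against 0.04 as deposited. Of 8 genes of the proximal tubule S3 segment, 6 were lower after 60 min on both days and 2 were higher on both days, Slc7a12 at 1.38 on day 3 and 1.86 on day 1 and Slc5a1 at 0.29 on day 3 and 0.43 on day 1. The summed S3 intensity, to which the brightest genes add most, was 53446 after 60 min and 99054 after 0 min on day 3, and 58102 after 60 min and 82096 after 0 min on day 1. The 8 S1 and S2 genes had a median difference of -0.37 on day 3 and -0.24 on day 1. Of these 6 were lower on both days and 1 was higher on both days, Slc5a12 at 0.03 on day 3 and 0.53 on day 1. Injured tubule genes ran the other way, with 6 of 6 past 2-fold on both days and a summed intensity of 47525 after 60 min and 8535 after 0 min on day 3, and 52326 after 60 min and 10356 after 0 min on day 1. Macrophage markers summed to 33676 after 60 min and 9672 after 0 min on day 3, and to 9183 after 60 min and 5566 after 0 min on day 1. Lyz2 alone gave 17100 of the 60 min sum on day 3. Of the 8 macrophage markers 7 were higher on both days, with Adgre1 and C1qb at 0.11 on day 1, and Csf1r was at -0.33 on day 1. The part of these cell types in the members' differences was not tested.

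**Figure D4:**
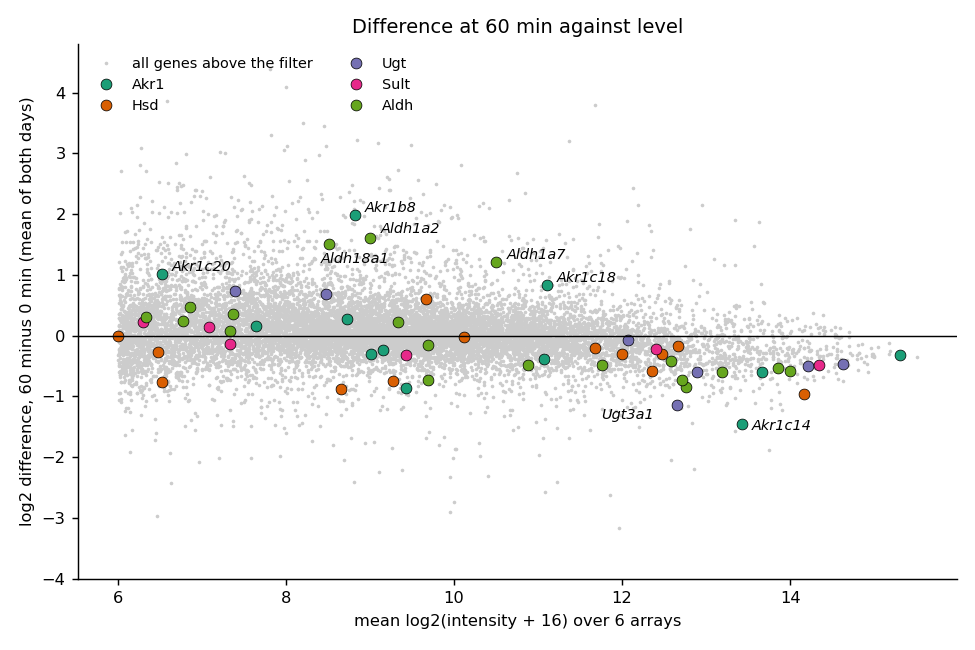
Log2 difference of 60 min minus 0 min, as the mean of both days, against the mean log2(intensity + 16) over the 6 arrays, for the 57 members coloured by family and for all genes above the limit in grey. The brightest members, at the right, lie below 0, and Akr1b8, Aldh1a2, Aldh18a1 and Aldh1a7 lie above the rest of the members.

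After 45 min few members stood out from 0 min. On both days, 0 members were at least 2-fold higher and 0 at least 2-fold lower, against 0.275% and 0.0471% of all genes. On day 3 alone 1 member, Aldh1a7 at 1.11, was at least 2-fold higher and 0 were lower, against 1.5% and 0.785% of all genes. On day 1 alone 2 were at least 2-fold higher, Akr1c18 at 3.82 and Aldh1b1, a mitochondrial aldehyde dehydrogenase, at 1.18, and 1 was lower, Akr1b10 at -1.03, against 3.57% and 1.06% of all genes. The members' median was -0.03 on day 3 and -0.15 on day 1. In the limma fit 0 members passed, and at an unadjusted p under 0.05 there were 2 higher and 2 lower, against 3.83% and 1.97% of all genes. Across the 57 members the 45 min difference on day 3 and on day 1 had a Pearson correlation of -0.16 (0.06 over all genes), while the 60 min difference had one of 0.67 (0.66 over all genes). These are correlations across genes, which are not independent replicates.

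Set against 45 min, the 60 min clamp gave 1 member at least 2-fold higher on both days, Akr1b8, and 0 at least 2-fold lower, against 0.33% and 0.267% of all genes. On day 3 alone 4 members were higher by that much and 4 lower, against 5.96% and 2.4% of all genes, and on day 1 alone 2 and 1, against 1.02% and 0.982%. In the limma fit 0 members passed. At an unadjusted p under 0.05, 11 members (19.3%) were lower and 5 (8.77%) higher, against 5.29% and 7.76% of all genes. The comparisons with 0 and with 45 min share the 60 min arrays. For Akr1c14, 60 min minus 45 min was -1.73 on day 3 and -0.84 on day 1, and for Ugt3a1 -1.22 on day 3 and -0.67 on day 1. For both genes the 45 min kidneys were nearer to the 0 min kidneys than to the 60 min kidneys.

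Between days the clamped kidneys differed in few members. In the limma fit of clamped kidneys 0 members passed for day 3 against day 1, and at an unadjusted p under 0.05 there were 0 higher and 3 lower, against 1.75% and 2.35% of all genes. These were Akr1c12, Akr1c13 and Aldh1a7, with differences of -0.55 ± 0.19, -0.77 ± 0.25 and -1.28 ± 0.30 (SE, limma adjusted p = 0.997 for each). Array against array, day 3 was 2-fold or more above day 1 in 1 member and below it in 3 after 60 min, against 3.01% and 1.09% of all genes, and above it in 0 and below it in 2 after 45 min, against 1.19% and 2.06%. Between the 0 min kidneys 1 member was at least 2-fold higher on day 3, Akr1c18, and 4 at least 2-fold lower, Akr1c13, Aldh1a1, Aldh1a7 and Sult2b1, against 1.71% and 1.4% of all genes.

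Genes of the same pathways outside the families were read beside the members. Of 17 genes of retinoic acid handling above the intensity limit, 0 were at least 2-fold changed on both days after 60 min, with a median difference of 0.12 on day 3 and -0.24 on day 1. Rdh16, a retinol dehydrogenase, read 1227, 1178 and 794.3 after 0, 45 and 60 min on day 3 and 1835, 1798 and 990.7 on day 1. Rdh11, a retinal reductase, read 320.4, 398.2 and 728.5 on day 3 and 372.8, 539.3 and 624.3 on day 1. Of 14 genes of steroid synthesis and steroid receptors, 1 was at least 2-fold lower on both days: Cyp7b1, the oxysterol 7-alpha-hydroxylase, at 12608, 7714 and 886.9 on day 3 and 13732, 1391 and 2373 on day 1. By any amount 9 of the 14 were lower and 0 higher after 60 min on both days. The list's median was -0.23 on day 3 and -0.35 on day 1. Of 12 genes that supply the sugar and sulfate donors, 0 were 2-fold changed on both days, and their median was -0.22 on day 3 and 0.18 on day 1. Of 17 other conjugating enzymes 1 was at least 2-fold lower on both days, the indolethylamine methyltransferase Inmt, at 11743, 14613 and 3594 on day 3 and 8595, 7376 and 3814 on day 1, and the list's median was -0.48 on day 3 and -0.39 on day 1. Of 14 NRF2 targets outside the families, 0 were 2-fold changed on both days, 7 were lower on both days and 5 higher on both days, with medians of -0.15 on day 3 and -0.04 on day 1. Hmox1, the inducible heme oxygenase, had the largest mean difference of the list and read 388.7, 87.9 and 982.4 on day 3 and 174.7, 159.6 and 255.5 on day 1. Next came Abcc4 (0.90 on day 3, 0.34 on day 1), Pgd (0.40 on day 3, 0.77 on day 1) and Cbr3 (1.20 on day 3, -0.14 on day 1), each as 60 min minus 0 min. Among 12 regulators of such enzymes 5 were lower and 4 higher on both days, the median was -0.23 on day 3 and 0.04 on day 1, and Hnf4a, a transcription factor of proximal tubule and liver, read 13682, 15250 and 9455 on day 3 and 13482, 10357 and 9678 on day 1. The dimmer Nr0b2 was lower after 60 min, at -0.92 on day 3 and -1.19 on day 1, while Nr1i2 (0.85 on day 3, 1.01 on day 1) and Cebpb (1.14 on day 3, 0.70 on day 1) were higher. The lists can be set beside the medians of all genes, 0.04 on day 3 and 0.03 on day 1. Of all genes, 3.04% were at least 2-fold higher and 0.715% at least 2-fold lower after 60 min on both days. By any amount, 38.7% were higher and 31.7% lower on both days.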

How the data were processed

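Each of the 6 samples was hybridised to 1 array. Trizol was used for RNA and a 3′ IVT kit for the biotinylated cRNA, per the labels' protocols. The deposited values are linear intensities per probe set, and Affymetrix Expression Console is named per the submitters' processing notes, without a version, and the summary method is not stated in the labels. In the deposited intensities each array's mean after trimming 2% at each end was 500.003, so the arrays had been scaled to a common target. Of 45101 probe sets, 64 were controls, 34945 had 1 symbol, 932 several and 9160 none. Symbols were checked against the RefSeq gene table (34741 matched, 0 changed), and all 75 members matched it. Probe sets with several symbols were left out of counts, among them 9 with a family symbol, so 13 family symbols have no value of their own.

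Log2(intensity + 16) was fitted with limma (version 3.58.1, under R 4.3.3), with eBayes and Benjamini-Hochberg adjustment over all genes above the 40th percentile and a threshold of 0.05. Clamp time plus day was the main model, and day 3 against day 1 used 4 groups, clamped or 0 min kidneys on either day. The fit was tested on simulated data. Members and lists were chosen with earlier results of these data known. Named genes were those 2-fold changed on both days, those with the largest differences or highest intensities in each family, and a list fixed by name, with members below the limit given by range. The limit of 5000, the day-dependent change in clamp effect, the medians and counts under other scalings, and Aldh1b1, Aldh4a1, Aldh5a1 and other genes outside that rule were taken after the data were seen. Alternatives were other scalings, offsets, probe sets, filters, variance models and arrays left out in turn. With 1 array per combination, the number of arrays limits the precision.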

Additional observations from a re-analysis of the deposited data

Results flagged for a closer look

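Akr1c18, Sult2b1 and Aldh3b2 stood out because both clamped kidneys of one day lay on the opposite side of that day's 0 min kidney from those of the other day, by a mean of at least 0.4 on each day. For Akr1c18 the clamp effect on day 3 minus that on day 1 was -3.59 ± 0.89 (SE), with a mean of -0.50 on day 3 and 3.08 on day 1. For Sult2b1 it was 1.43 ± 0.44, with a mean of 0.87 on day 3 and -0.56 on day 1, at intensities of 27.0 to 109.6. For Aldh3b2, an aldehyde dehydrogenase, it was 1.08 ± 0.38, with a mean of 0.60 on day 3 and -0.48 on day 1, at 102.6 to 191.9. Dimmer probe sets shared by Aldh3b2 and Aldh3b3, which entered no count, were lower after 60 min than after 0 min on both days. They stood at -0.80 and -0.34 on day 3 and at -0.98 and -1.04 on day 1. The limma adjusted p was 1.0 for each, over all 12734 genes. A total of 10 of the 57 members had opposite directions on the 2 days when smaller sizes were allowed. Both clamped kidneys of a day are set against the same 0 min array. The share of all genes that meet either rule was not computed, so these counts cannot be set against a background. The 3 members were picked from the same values that the change in clamp effect is computed from. Its size and SE are therefore no separate support for them, and each day has a single 0 min array.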

How the results depend on the processing

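The main model holds day as a term, so clamp times were compared within days, and no further block could be fitted because the labels give no replicate numbers. With a fold of 1.5 in place of 2, 7 members were higher and 7 lower after 60 min than after 0 min on both days, against 7.46% and 2.92% of all genes, and 3 were higher and 2 lower than after 45 min, against 2.25% and 1.67%. With quantile normalization 0 members were at least 2-fold lower after 60 min than after 0 min on both days, as Akr1c14 stood at -0.96 and Ugt3a1 at -0.97 on day 1. The number of members passing limma's adjusted p of 0.05 for 60 min against 0 min was 0, and it became 4 with a filter at the 60th percentile, 1 when all probe sets of a gene were averaged, 3 with median centring, 5 with an offset of 64 and 14 with a robust variance and an intensity trend. The same settings called 202, 20, 135, 277 and 615 of all genes, against 0. Leaving out the 45 min array of day 3 gave the same fit of 60 min against 0 min as leaving out that of day 1. It was not the same as the main fit, and it called more members and more of all genes. The 45 min array that stays is then fitted exactly by its own term, so these left-out fits are not separate checks. The cause of the changes in the number of calls between settings was not tested. Without the 45 min array of day 3, 3 of all genes passed for 45 min against 0 min. Of 921 recomputed differences of named members, 18 turned sign, in 14 of 66 pairs of member and contrast, the largest of them at 0.917 in size. With quantile normalization the 60 min against 0 min estimate came closer to 0 by over 1.5 times in 8 of 41 named members, none over 0.461 in size before, and moved away from 0 by that much in 1. With the mean of its probe sets Akr1b10 stood at 0.056 after 60 min against 0 min. The other reversals came with 1 array left out. For 60 min against 0 min the values ranged from -0.55 to 0.071 for Akr1b10, from -0.96 (without the 0 min kidney of day 1) to 2.62 for Akr1c18, from -0.26 to 0.71 for Aldh1a1, from -0.056 to 0.55 for Aldh1l2, from -0.62 to 0.022 for Hsd11b1, from -0.54 to 0.014 for Hsd17b13, from -0.67 to 0.035 for Sult1a1, from -0.43 to 0.14 for Sult1b1, from -0.48 to 0.95 for Sult2b1 and from -0.36 to 0.23 for Ugt2b37. For 60 min against 45 min they ranged from -2.24 to 0.40 for Akr1c18 and from -0.56 to 0.0098 for Sult1b1. For day 3 against day 1 in clamped kidneys they ranged from -0.15 to 1.05 for Hsd17b11 and from -0.39 to 0.15 for Sult2b1. Where a left-out array leaves 1 in a group, that array is assumed to vary like the others.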
